A study of Mus musculus with 4 samples.

Results

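The proliferin genes Prl2c2, Prl2c3, Prl2c4 and Prl2c5 are near-identical copies in the prolactin family of mouse. They were examined in RNA sequencing of 4T1-T, a line derived from mouse 4T1 mammary carcinoma cells, in which asparagine synthetase (Asns) had been silenced in every library. The libraries came from cells kept in DMEM, 2 without asparagine and 2 with it, each pair lettered A and B. The labels name no drug, no time of growth, no silencing reagent and no separate cultures, and no unsilenced library was analysed here. The members were found by gene symbol, and all 4 symbols have a row among the 23481 genes of the deposited count table. The group was chosen by the counts themselves, since Prl2c2 was already known to be higher without asparagine. Its difference between the conditions is therefore a description here, and no test of it is read.

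Proliferin is a secreted glycoprotein hormone, also called mitogen-regulated protein because serum and growth factors induce its transcript in cultured mouse fibroblasts. Trophoblast giant cells of the placenta are its main source in the animal, and there it promotes the growth of blood vessels. It binds the cation-independent mannose 6-phosphate receptor, which Igf2r encodes. It does not act through the prolactin receptor. The transcription factor AP-1 is known to act on proliferin transcription in cultured cells, and GATA factors do so in trophoblast.

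The copies lie together on chromosome 13 of GRCm38, in a stretch of 401 kb, away from the main prolactin cluster on the same chromosome. In GENCODE M21, Prl2c3 lies on the minus strand at chr13:12790816-12800079, Prl2c2 on the minus strand at chr13:12996125-13005383, and Prl2c5 on the plus strand at chr13:13182715-13191923. Each has 5 exons in its principal transcript. Prl2c4 has no gene of its own in that annotation, and RefSeq lists the symbol as an older name of Prl2c3. The stretch holds 11 further gene models, 9 of them pseudogenes, and none of the 11 is a row of the count table. No exon of another gene overlaps an exon of Prl2c2, Prl2c3 or Prl2c5 on either strand.

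**Figure D1:**
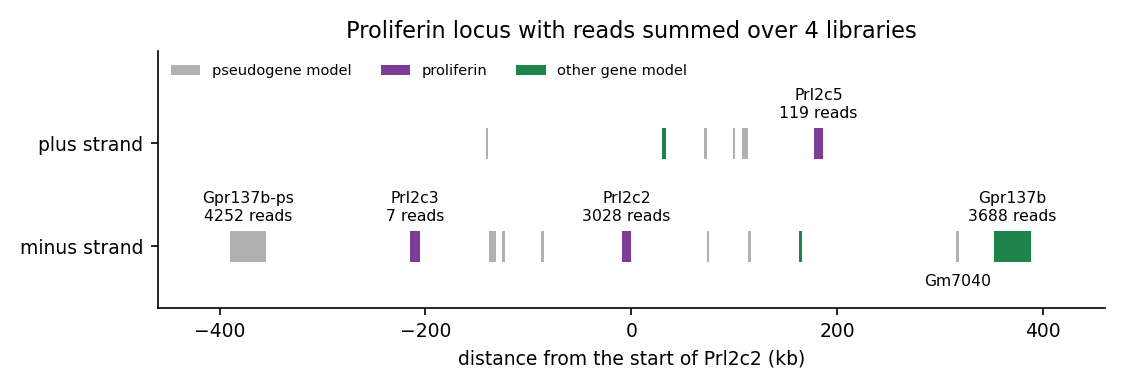
Gene models around the proliferins by distance from the start of Prl2c2 in kb, plus strand above and minus strand below, with reads summed over the 4 libraries. Prl2c2 holds 3028 reads, Prl2c5 119 and Prl2c3 7. The pseudogene Gm7040 has no row in the count table.

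The coding sequences show how little separates the copies. Those of Prl2c2 and Prl2c3 are both 672 bases long without the stop codon and are 99.6% identical. Counting from 1 at the A of the start codon, they differ by 3 substitutions, T14C, C200A and T319G, with the base of Prl2c2 first. The whole transcripts of 842 and 857 bases have 4 mismatches over the aligned part. Over exons 1 to 4, Prl2c5 differs from Prl2c2 at 16 of 498 coding positions, and Prl2c1, a more distant relative in the main cluster, at 37. The coding sequences of Prl2c5 and Prl2c1 are 666 and 684 bases long.

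The stretches around the 3 substitutions are printed because a read has to cover one of them, or a difference outside the coding sequence, to tell Prl2c2 from Prl2c3. In the line of Prl2c2 the capital marks the base that differs in Prl2c3. In the other lines capitals mark bases that differ from Prl2c2. The first is the coding part of exon 1, coding positions 1 to 31, at chr13:13005296-13005326 of GRCm38 on the minus strand for Prl2c2.
Prl2c2: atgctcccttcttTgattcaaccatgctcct
Prl2c3: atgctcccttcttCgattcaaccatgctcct
Prl2c5: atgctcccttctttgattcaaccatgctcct
Prl2c1: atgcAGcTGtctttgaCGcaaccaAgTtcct
The same positions lie at chr13:12799982-12800012 (minus strand) for Prl2c3, chr13:13182782-13182812 (plus strand) for Prl2c5 and chr13:27849402-27849432 (plus strand) for Prl2c1. In this stretch Prl2c5 has the bases of Prl2c2 throughout.

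The second stretch is the end of exon 2, coding positions 148 to 207, at chr13:13002134-13002193 on the minus strand for Prl2c2. It is shown because here all copies are nearly alike and Prl2c1 equals Prl2c2.
Prl2c2: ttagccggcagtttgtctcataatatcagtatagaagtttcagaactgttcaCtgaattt
Prl2c3: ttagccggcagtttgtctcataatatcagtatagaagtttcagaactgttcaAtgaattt
Prl2c5: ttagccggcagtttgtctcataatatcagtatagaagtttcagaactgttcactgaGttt
Prl2c1: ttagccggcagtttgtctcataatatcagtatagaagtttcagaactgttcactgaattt
The third stretch is the start of exon 4, coding positions 316 to 375, at chr13:12997408-12997467 on the minus strand for Prl2c2. Here Prl2c2 stands alone at the marked position, with the other copies sharing a different base.
Prl2c2: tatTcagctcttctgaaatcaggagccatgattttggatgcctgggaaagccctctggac
Prl2c3: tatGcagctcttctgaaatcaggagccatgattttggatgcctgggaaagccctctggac
Prl2c5: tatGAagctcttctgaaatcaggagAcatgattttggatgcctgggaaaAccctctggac
Prl2c1: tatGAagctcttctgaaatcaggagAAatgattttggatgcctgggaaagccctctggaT

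The read length is not given in the sources used here, so windows of 50 and 100 bases stand in for reads. Of the 793 windows of 50 bases in the Prl2c2 transcript, 635 (80.1%) occur unchanged in Prl2c3, 147 in Prl2c5, 105 in Prl2c1 and 189 in the pseudogene Gm7040. Only 83 windows (10.5%) occur in no other gene of GENCODE M21. With 100 bases, 250 of 743 windows (33.6%) belong to Prl2c2 alone. Prl2c5 is better separated, with 61.4% of its 50-base windows and 91.3% of its 100-base windows in no other gene. For Prl2c3 the same shares are 21.4% and 37.7%.

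**Figure D2:**
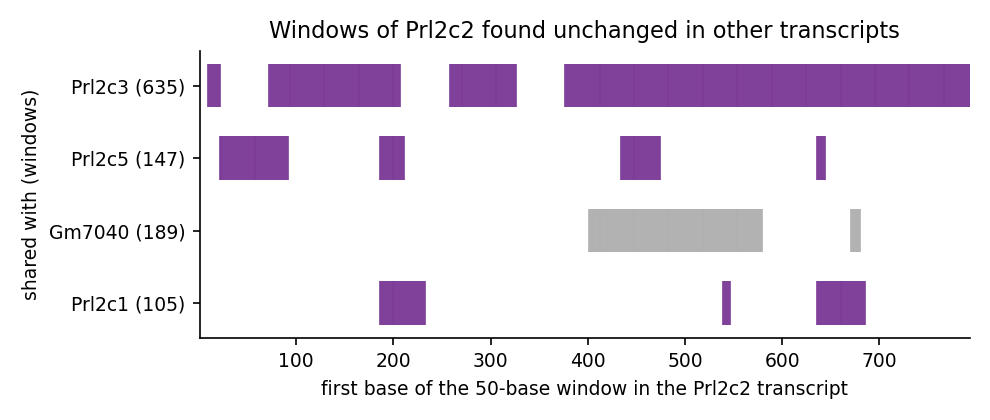
Start positions of 50-base windows along the Prl2c2 transcript (x axis, bases) that occur unchanged in another gene's transcript, one row per gene with its number of windows. Prl2c3 covers 635 of 793 windows with 3 wide gaps around the differing positions, and Prl2c5, Gm7040 and Prl2c1 cover shorter blocks.

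The table listed 0 reads in its rows for non-unique alignments and for low alignment quality, in every library. How a read that fits several copies was assigned is not given, so the split between copies is uncertain, and the sum of the 4 rows is given beside each of them.

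The summed proliferin counts were several-fold higher in the cells without asparagine. Libraries A and B without asparagine had 1146 and 1331 reads. The separate libraries A and B with asparagine had 293 and 384. Scaled to library size as CPM (the usual rate of gene reads, with TMM-adjusted library totals), the sum was 62.5 and 59.5 CPM without and 12.3 and 12.8 CPM with asparagine. Both libraries without asparagine lay far above both with it, and within each condition the libraries were close together. The means were 61.0 ± 2.07 and 12.6 ± 0.350 CPM (SD, n = 2 each). The log2 fold change, without minus with asparagine, was 2.28 ± 0.11 (SE), or 4.85-fold. Both libraries of the first condition also lay above both of the other for 26.1% of the 12843 genes tested.

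Prl2c2, the founding proliferin, carried nearly all of these reads. It had 1108 and 1268 reads without asparagine and 284 and 368 with it. That is 60.4 and 56.7 CPM against 11.9 and 12.3 CPM, so the groups did not overlap. The log2 fold change was 2.27 ± 0.11 (SE), the 21st largest increase among the genes tested.

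Prl2c5, which has the same exon structure on the opposite strand, was a minor copy with a fold change of similar size. It had 37 and 58 reads without asparagine and 9 and 15 with it, or 2.02 and 2.59 CPM against 0.378 and 0.500 CPM. Again the groups did not overlap. The log2 fold change was 2.37 ± 0.34 (SE), and the wider error goes with 119 reads in all.

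Prl2c3, whose transcript is almost that of Prl2c2, had hardly any reads. Of its 7 reads, 1 and 5 came from the libraries without asparagine and 0 and 1 from those with it, too few for the low-count filter. The ratio of the scaled pooled counts was 7.93, with an exact 95% counting interval from 0.962 to 365. Prl2c4 was listed at 0 in every library, where 3 reads would correspond to between 0.1 and 0.164 CPM. Which gene model its row stands for is not known, since RefSeq lists the symbol as an older name of Prl2c3. The 0 therefore sets no bound on the expression of a separate gene. Whether the annotation used in counting also lowered the reads of Prl2c3 was not tested. No fold is given for Prl2c4. So 2 of the 4 members passed the filter, with most of their reads in the libraries without asparagine. Prl2c2 lay far above the filter's minimum count of 10 in every library. Prl2c5 was near it in the libraries with asparagine, at 9 and 15 reads.

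The split of the reads between the rows of the copies was alike in both conditions while the sum differed. Prl2c2 took 96.7% and 95.3% of the summed reads without asparagine and 96.9% and 95.8% with it. Prl2c5 took 3.23% (95% Wilson interval 2.35 to 4.42) and 4.36% (3.39 to 5.59) without asparagine. With asparagine its share was 3.07% (1.62 to 5.73) and 3.91% (2.38 to 6.34). All 4 intervals overlap, and they cover counting error only. The mean share was 3.79 ± 0.798% without and 3.49 ± 0.590% with asparagine (SD, n = 2 each), a gap smaller than either SD. With 2 libraries against 2 an exact permutation test cannot reach the 0.05 threshold, so none was run. Of the 50-base windows of Prl2c5, 18.5% also occur in Prl2c2, so some of its reads could belong to Prl2c2. Whether the steady share of Prl2c5 comes from reads of its own was not tested.

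Per kilobase of transcript, which corrects for transcript length, Prl2c2 stood at 69.5 ± 3.09 CPM without and 14.4 ± 0.285 CPM with asparagine (SD, n = 2 each). The scale does not correct for reads that fit several copies. The share of 50-base windows in no other gene was 10.5% for Prl2c2, 61.4% for Prl2c5 and 21.4% for Prl2c3. Levels of different copies are therefore only roughly comparable. Prl2c5 stood at 2.73 ± 0.484 and 0.521 ± 0.102 CPM per kilobase. Prl2c3 stood at 0.162 ± 0.140 and 0.0195 ± 0.0275. The order Prl2c2, Prl2c5, Prl2c3 held in each of the 4 libraries, with Prl2c3 at 0 in library A with asparagine. Prl2c4, with no reads and no transcript in the annotation, has no value on this scale. On this scale the level of Prl2c5 without asparagine was still below that of Prl2c2 with it.

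**Figure D3:**
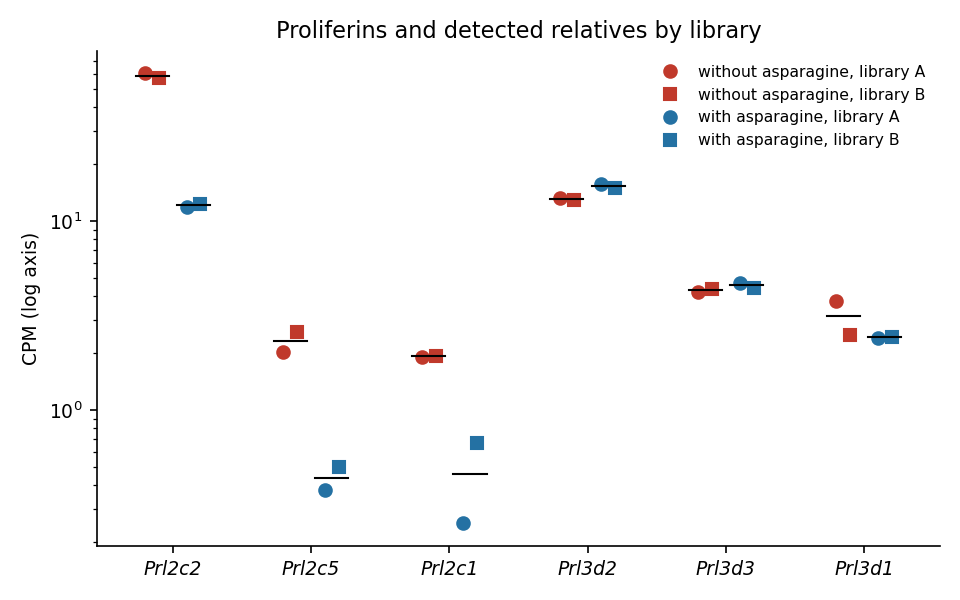
CPM on a log axis for Prl2c2, Prl2c5, Prl2c1 and the 3 Prl3d genes, circles for library A, squares for library B, red without and blue with asparagine, short lines for the means of 2 libraries. Prl2c2 is near 60 CPM without and near 12 CPM with asparagine, Prl2c5 and Prl2c1 are lower with asparagine in both libraries, and the Prl3d genes differ little.

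The size of the summed change barely moved with the processing. Over the other scalings, tests, filters and left-out libraries, the log2 fold change lay between 2.24 and 2.33. Library A without asparagine had the most reads counted to no feature, 56.6% against 46.3% to 49.3% elsewhere. Leaving this library out gave 2.24 ± 0.11 (SE). The use of strand in counting is not given, so such reads need not lie outside annotated genes. Prl2c2 and Prl2c5 alone ranged from 2.16 to 2.59 over the settings under which each was tested.

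**Figure D4:**
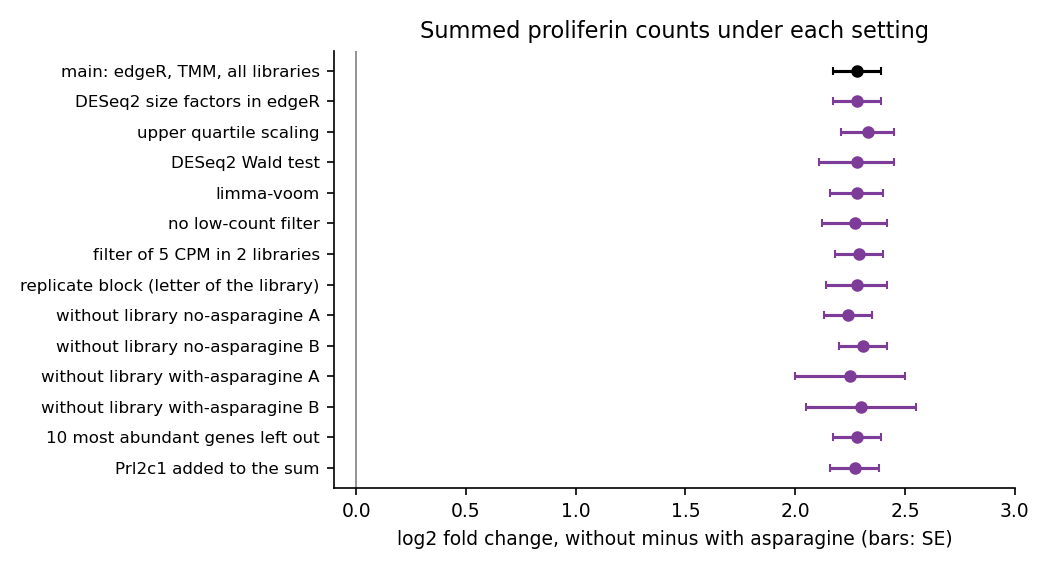
Log2 fold change of the summed proliferin counts, without minus with asparagine (x axis, bars are SE), under each processing setting. Every point lies between 2.24 and 2.33, and the bars are widest (0.25) when a library with asparagine is left out.

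Beyond the proliferins, reads of the prolactin family came mostly from the 3 Prl3d genes. The other family rows summed to 23.8 and 22.8 CPM without and 23.3 and 22.9 CPM with asparagine. Of 24 other family symbols, all in the table, 4 passed the filter, and none of the 4 passed the edgeR quasi-likelihood test at an adjusted p of 0.05, against 1.85% of all genes tested and 0.771% called higher. Left at very low counts were 20 genes with at most 8 reads over all libraries, among them Prl itself, with 2 reads, and the placental lactogen Prl3b1, with 0. At an unadjusted p under 0.05 the count was 1 of 4, where 18.1% of all genes tested (2328) lay under it. The share of genes called depends on the libraries. Called genes numbered 237 with all of them, 2051 and 5363 when library A or B without asparagine was left out, and 58 and 48 when A or B with asparagine was left out.

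Prl2c1, the relative nearest in sequence outside the cluster (chr13:27849342-27857788, plus strand), had 35 and 43 reads without asparagine and 6 and 20 with it. In CPM these are 1.91 and 1.92 against 0.252 and 0.667, with no overlap but with the libraries with asparagine far apart. Its log2 fold change of 2.00 ± 0.43 (SE) missed the edgeR threshold (adjusted p = 0.0837). The value was 1.51 without library A with asparagine and 2.89 without library B. With a library without asparagine left out, it was 1.99 (A removed) and 1.97 (B removed). Such fits leave 1 library in a group, which is taken to vary like the other group, so no call of Prl2c1 is read from them. Prl2c1 was called by the DESeq2 Wald test (2.03, adjusted p = 0.0388). It was also called by edgeR without the low-count filter (1.99, adjusted p = 3e-05). Of its 50-base windows, 13.1% also occur in Prl2c2 and 19.3% in Prl2c5, so some of its reads could belong to them. With Prl2c1 added to the proliferin sum, a choice made after its values were seen, the log2 fold change was 2.27.

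The copies of placental lactogen I, Prl3d1, Prl3d2 and Prl3d3, were the other family members with reads. This hormone binds the prolactin receptor, and trophoblast giant cells make it, as they do proliferin. Prl3d2 had 13.3 and 12.9 CPM without and 15.6 and 15 CPM with asparagine, slightly lower without. Its log2 fold change was -0.22 ± 0.13 (SE, edgeR adjusted p = 0.389). Prl3d3 had 4.20 and 4.38 CPM against 4.71 and 4.44 CPM (log2 fold change -0.09, adjusted p = 0.823). Prl3d1 had 3.76 and 2.5 CPM against 2.40 and 2.44 CPM (log2 fold change 0.36, adjusted p = 0.498). The Prl3d copies are also alike, at 98.4% to 98.5% identity, and their split is uncertain for the same reason. Per kilobase, Prl3d2 stood at 18.0 ± 0.454 CPM with asparagine, above Prl2c2 in the same libraries (14.4 ± 0.285). Without asparagine Prl2c2 was far above Prl3d2 (15.4 ± 0.309, SD, n = 2 each). Windows of 50 bases found in no other gene made up 33.1% for Prl3d2 but 10.5% for Prl2c2. The order with asparagine could thus depend on how shared reads were assigned, which is not given.

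Transcripts of the proliferin receptor were abundant and those of the prolactin receptor were nearly absent. Igf2r, which encodes the receptor that proliferin binds, had 201 and 273 CPM without and 408 and 417 CPM with asparagine. Both values without asparagine were lower, and they lay far apart. Its log2 fold change was -0.80 ± 0.15 (SE) and just missed the edgeR threshold (adjusted p = 0.0609). Igf2r was called by the DESeq2 Wald test (-0.80, adjusted p = 1.88e-04). It was also called by edgeR without the low-count filter (-0.80, adjusted p = 9.11e-08). With a library without asparagine left out, the value was -0.60 (A removed) and -1.04 (B removed). With a library with asparagine left out, it was -0.82 (A removed) and -0.79 (B removed). Such fits leave 1 library in a group, which is taken to vary like the other group, so no call of Igf2r is read from them. Over all settings its log2 fold change stayed between -1.04 and -0.60.

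M6pr, the smaller mannose 6-phosphate receptor, had 128 and 187 CPM without and 156 and 163 CPM with asparagine, overlapping groups (log2 fold change -0.02, adjusted p = 0.970). Its sign turned with upper quartile scaling (0.03) and without library A without asparagine (0.23). The prolactin receptor gene Prlr had 0 reads in both libraries without asparagine and 2 and 3 with it. Ghr, the growth hormone receptor gene, was well expressed, at 155 and 149 CPM without and 185 CPM in each library with asparagine (log2 fold change -0.29, adjusted p = 0.199). Stat3, a transducer shared by many cytokine receptors, had 62.3 and 78.5 CPM against 77.7 and 84.1 CPM (log2 fold change -0.20, adjusted p = 0.465). Exons of Stat3 overlap those of Stat5a on the opposite strand, and the use of strand in counting is not given.

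As a list, the receptors and their JAK-STAT signalling genes had 12 of 13 members tested and 0 called by edgeR, with 4 at an unadjusted p under 0.05 (18.1% of all genes tested). Of the 12, 3 had a fold change above 0 and 9 below, with a median of -0.24 on the log2 scale, against 0.01 over all genes tested. The range was -0.89 to 0.22. The feedback inhibitors of cytokine signalling in the list, Cish, Socs1, Socs2 and Socs3, were at most 13.2 CPM in any library.

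AP-1 genes, whose products are known to act on proliferin transcription, were expressed in both conditions. Of 10 members, 9 were tested, 6 above 0 and 3 below, and 0 were called by edgeR, with 4 at an unadjusted p under 0.05 (18.1% of all genes tested). The median log2 fold change was 0.10. Fosl2, the most abundant, had 187 and 208 CPM without and 144 and 150 CPM with asparagine, with no overlap (log2 fold change 0.43, adjusted p = 0.115). Jun had 158 and 148 CPM against 154 and 166 CPM (log2 fold change -0.07, adjusted p = 0.753). Jund changed little in value, at 0.10 on the log2 scale (adjusted p = 0.703). Junb had 24.3 and 17.8 CPM against 13.0 and 14.9 CPM (log2 fold change 0.58, adjusted p = 0.170). Jun, Junb and Jund share exon positions with opposite-strand genes, whose reads may be mixed into their counts. Outside the naming rule and chosen after its values were seen, Atf3 had the largest value of the list, 6 and 7.51 CPM against 3.32 and 3.40 CPM (log2 fold change 1.01, adjusted p = 0.0638).

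**Figure D5:**
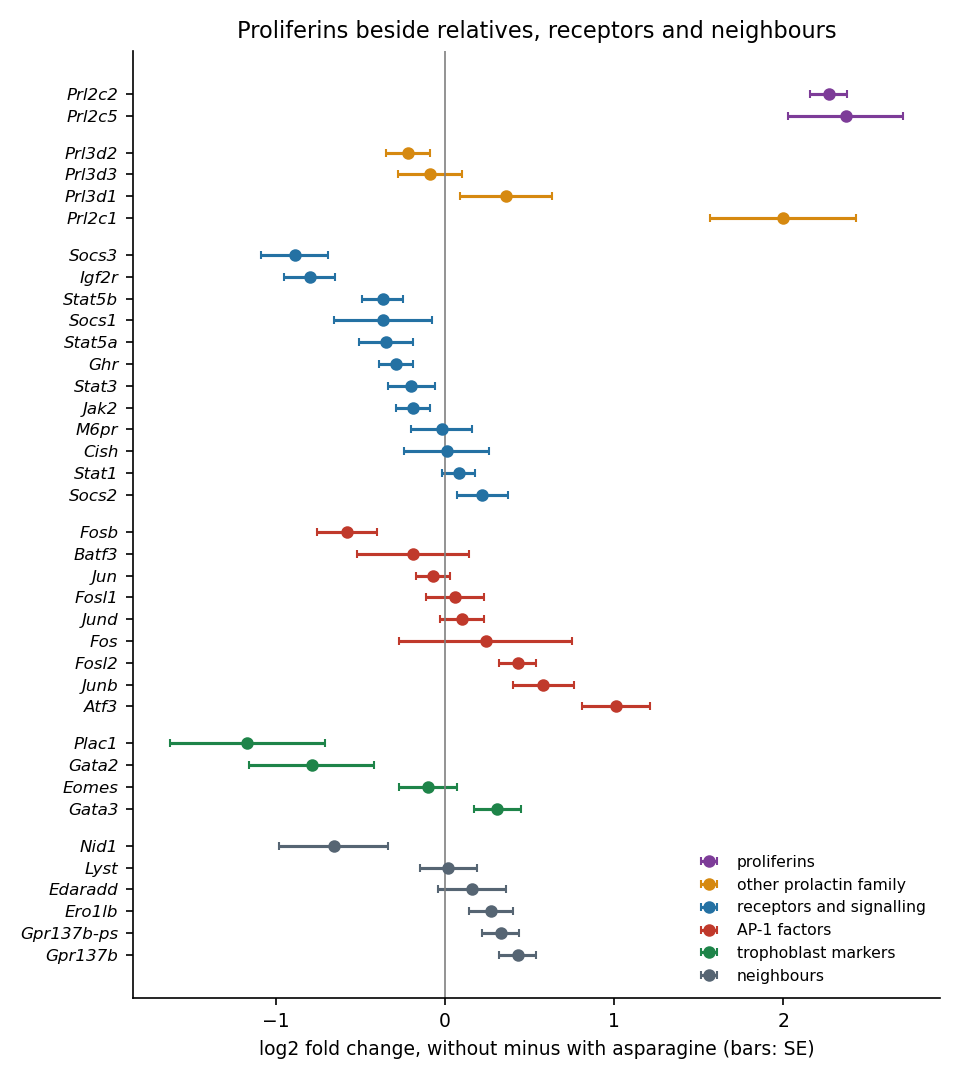
Log2 fold change, without minus with asparagine, with SE bars, for every tested gene of the proliferins, other prolactin family, receptors and signalling, AP-1 factors, trophoblast markers and chromosomal neighbours. Prl2c2, Prl2c5 and Prl2c1 lie at 2 or above, and all other genes lie between -1.17 and 1.01.

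Sequence upstream of the start was at hand in RefSeq's promoter table (GRCm38.p6) for 2 of the 4 members, Prl2c3 and Prl2c5. The 250 bases before each start are printed because these copies differ in counts, although the split of reads between copies is uncertain. Their upstream sequence is 96.8% identical over the aligned part, with 8 mismatches. Capitals mark bases that differ between the pair or face a gap. That of Prl2c3 lies at chr13:12800080-12800329 on the minus strand and that of Prl2c5 at chr13:13182466-13182715 on the plus strand. The last base of the Prl2c5 stretch is the first base of the gene in GENCODE M21, as RefSeq places its start slightly later.
Prl2c3: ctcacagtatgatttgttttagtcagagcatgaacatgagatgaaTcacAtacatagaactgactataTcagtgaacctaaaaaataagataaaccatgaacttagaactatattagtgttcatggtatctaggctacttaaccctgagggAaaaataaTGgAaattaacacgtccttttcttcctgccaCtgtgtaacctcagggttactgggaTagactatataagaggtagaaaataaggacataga
Prl2c5: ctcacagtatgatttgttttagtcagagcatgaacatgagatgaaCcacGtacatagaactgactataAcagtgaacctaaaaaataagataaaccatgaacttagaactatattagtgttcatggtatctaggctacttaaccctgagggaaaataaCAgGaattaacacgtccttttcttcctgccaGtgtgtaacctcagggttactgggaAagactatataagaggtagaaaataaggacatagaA
On both strands, the GATA word AGATAA occurs once in each, beginning 163 bases before the start, and it occurs in 9.99% of the 32851 promoters of the table over the same length. The AP-1 word TGAGTCA, found in 4.46% of promoters, occurs in neither as an exact match. The CRE word TGACGTCA (1.55%), the ATF4-C/EBP word TGATGCAA (0.791%) and the TATA word TATAAA (12.4%) also have no match in these windows. Only exact words were searched, so near matches of any word were not counted. Near its end each stretch holds tataag, which differs from TATAAA only in the last base. Absence of the exact TATA word is therefore not absence of a TATA-like sequence. The words do not overlap one another here. A match or its absence describes these letters only.

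Most defining markers of trophoblast were at or near 0. Of 18 trophoblast markers, 6 had 0 reads in every library, namely Ascl2, Tpbpa, Tpbpb, Ctsq, Ctsj and Esx1, and Hand1, a regulator of giant cell fate, had 4 reads in all. The list summed to 183 and 142 CPM without and 130 and 139 CPM with asparagine. Most of that was Gata3, a factor also expressed in mammary epithelium, with 175 and 134 CPM against 121 and 128 CPM (log2 fold change 0.31, adjusted p = 0.306). Eomes was detected, at 5.29 and 5.32 CPM without and 5.72 and 5.67 CPM with asparagine (log2 fold change -0.10, edgeR adjusted p = 0.778). Gata2 had a log2 fold change of -0.79 (edgeR adjusted p = 0.319). Over the 4 tested members the log2 fold changes ran from -1.17 to 0.31. None of the 4 tested members was called by edgeR, and 1 had an unadjusted p under 0.05 (18.1% of all genes tested). Exons of Gata3 and Eomes overlap other gene models.

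Epithelial markers, which a carcinoma line should express, were high. Krt8, Krt18 and Cdh1 stood at 199 CPM or more in every library, while the basal keratin gene Krt5 had 2 reads in all. The fibroblast list summed to 18.5 and 23.3 CPM without and 43.4 and 41.3 CPM with asparagine, nearly all of it Pdgfra, which fell (log2 fold change -1.03, edgeR adjusted p = 0.0221). With library A or B of the asparagine-fed cells removed, Pdgfra was no longer called (adjusted p = 0.114 and 0.0943). Its other members, Col1a1 first among them, had at most 29 reads each. The endothelial list summed to at most 1.6 CPM, with 0 of 2 tested members called. The leukocyte list summed to between 6.35 and 7.52 CPM, nearly all Cd68, which was not called (adjusted p = 0.471). Of the 5 tested epithelial markers, 2 rose, Krt14 (log2 fold change 2.73, edgeR adjusted p = 0.00434) and Epcam (0.68, adjusted p = 0.0368). Over all genes tested, 0.771% were called higher and 1.85% in either direction. Epcam was not called without either library with asparagine (adjusted p = 0.555 and 0.384).

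Genes beside the locus had smaller fold changes than Prl2c2 and Prl2c5. The nearest tested genes were Gpr137b-ps, Ero1lb and Edaradd before the locus, 140, 179 and 270 kb away, and Gpr137b, Nid1 and Lyst after it, 166, 246 and 398 kb away. Their log2 fold changes were 0.33, 0.27, 0.16, 0.43, -0.66 and 0.02 in that order, and none passed the edgeR test (adjusted p = 0.184, 0.318, 0.703, 0.128, 0.330 and 0.961). Gpr137b, which encodes a lysosomal membrane protein, had 48.7 and 43.3 CPM without and 34.3 and 33.7 CPM with asparagine, with no overlap. Gpr137b-ps is a pseudogene copy of it, so their counts may be mixed.

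The genes most like the proliferin sum across the 4 libraries were named by the smallest distance between centred log2 CPM values. They were Gpr97 (distance 0.21), Plk2 (0.44), Wnt7a (0.48), Krt14 (0.50) and Havcr2 (0.51). Gpr97, an adhesion receptor gene now called Adgrg3, had 17.2 and 18.0 CPM without and 3.99 and 4.17 CPM with asparagine. With 2 conditions and 4 libraries, the distance mostly reflects a similar fold change, and no test is read from it.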

How the data were processed

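Libraries of total RNA from Asns-silenced 4T1-T cells were made with the NuGEN Ovation RNAseq V2 kit, per the labels' protocols. Reads were handled with Bowtie2 and HTSeq on mm10, per the submitters' processing notes. The sources used here give no versions, strand setting, read length or gene annotation. The deposited values are whole-number counts per gene symbol, not normalised, with 1 column for each library and 5 HTSeq summary rows. The summary rows held 60.1% to 70.0% of all rows' reads and entered neither library sizes nor tests. Gene counts ran from 17977552 to 30260582 per library, so 3 reads correspond to between 0.1 and 0.164 CPM. Chi-square over its degrees of freedom, comparing A with B, was 42.7 without and 4.99 with asparagine, so none was a copy of another.

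Counts were filtered with filterByExpr (minimum count 10, minimum total 15), scaled by TMM and tested across 12843 genes with the edgeR 4.0.16 quasi-likelihood test in R 4.3.3, with Benjamini-Hochberg adjustment and a threshold of 0.05. A second fit replaced the member rows by their sum. The SE is the absolute log2 fold change over the root of F. P-values measure the spread between these libraries, which may be technical. The scripts were tested on simulated data. Alternatives were DESeq2 1.42.0, its size factors, limma-voom (limma 3.58.1), upper quartile scaling, other filters, the letter as a block, abundant genes removed, and each library left out. A left-out library leaves 1 in its group, taken to vary like the other group.

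Positions, transcripts and overlaps came from GENCODE M21 (GRCm38, the build called mm10), and upstream sequence from RefSeq (GRCm38.p6). Transcripts were aligned with Biopython 1.88. The members, gene lists and motifs were chosen with earlier results of these data known. Named besides the members were family genes with at least 10 reads, in the receptor and AP-1 lists the called members and the 4 with the highest mean CPM, in the marker lists the called members and the top 3, the 3 nearest tested neighbours on each side, and the 5 most similar genes of at least 5 CPM (prior count 2), passing over Gm, Rik, LOC and pseudogene names. Genes outside this rule are named only within counts, ranges and lists of undetected genes, or as stated.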

Additional observations from a re-analysis of the deposited data

How the results depend on the processing

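The number of genes called by edgeR rests on the libraries and the test. It was 237 as reported, 464 with the DESeq2 Wald test, 1334 without the low-count filter, and 48 to 5363 when 1 library was left out. With the library letter as a replicate block it was 816, and the block left the summed proliferin log2 fold change at 2.28. Under the block edgeR called Prl2c1 (2.03, adjusted p = 0.00382), Igf2r (-0.81, 0.00118), Junb (0.57, 0.0448) and Cdh1 (0.50, 0.0375), none called in the fit as reported. Without the filter the calls gained included Fosl2 (adjusted p = 0.0242), Junb (0.00684), Cdh1 (0.00416) and Gpr137b (0.0381). The labels give only the letters, and 2 pairs cannot show whether they pair the libraries (the correlation of the differences between A and B across conditions was 0.123). Upper quartile scaling called 107 genes higher and 113 lower, against 99 and 138 as reported. The summed fold change had 14 alternatives, of which 13 moved by less than the spread between replicates and upper quartile scaling gave 2.33. Among single genes, signs turned with upper quartile scaling for M6pr (0.03) and Krt18 (0.03). With 1 library left out, M6pr ranged from -0.32 to 0.23, Krt18 from -0.20 to 0.13, Lyst from -0.24 to 0.24 and Pecam1 from -0.00 to 0.65. The causes were not tested. Prl2c3 and Prl2c4 have 7 and 0 reads, so no change could be measured for them.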
